A study of Homo sapiens with 12 samples.

Results

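The insulin-like growth factor binding proteins described here are IGFBP2, IGFBP3, IGFBP4, IGFBP5, IGFBP6 and IGFBP7, the rows of the deposited gene count table with these 6 names out of 63241 rows. All 6 passed the filter on low counts and are among the 8773 genes tested. RNA sequencing was run on T98G and U251, established human glioblastoma cell lines, and the groups were T98G PEPD-OE, T98G NC, U251 PEPD-OE and U251 NC with 3 libraries each, 12 in all. PEPD-OE stands for over-expression of PEPD, which encodes the proline dipeptidase prolidase, and NC is not spelled out in the labels. No source used here names the vector, its promoter or the time after its making, or says whether a line was a single clone and the 3 replicates came from separate cultures. Should they share a culture, the p-values reflect a spread between samples that may be technical.

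IGFBPs are secreted proteins. IGFBP2 to IGFBP6 bind IGF1 and IGF2 tightly, hold them in the extracellular space and control how much reaches the receptor IGF1R, and proteases that cut the binding protein set the ligand free. IGFBP7 is a more distant relative that binds IGFs weakly. Several of these proteins also act apart from IGFs, through the matrix or cell surface, and IGFBP2 is well known in glioma as a gene that marks the more malignant tumours.

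PEPD was read first as a check of the labels. The T98G PEPD-OE libraries had 118, 100 and 114 PEPD counts, against 9, 2 and 9 in the T98G NC libraries. The U251 PEPD-OE libraries had 113, 140 and 175, against 11, 5 and 7 in the U251 NC libraries. PEPD therefore separated the groups in both lines, with log2 fold changes of 4.04 ± 0.25 (SE, adjusted p = 1.33e-32) in T98G and 4.16 ± 0.23 (adjusted p = 1.28e-35) in U251 by edgeR's quasi-likelihood test, adjusted over all genes tested. The change in T98G minus that in U251 was −0.12 ± 0.47 (adjusted p = 0.884).

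Library totals were low, 464056 to 924204 counts with the lowest in T98G NC replicate 1, and 3 counts stood for 3.11 to 6.13 CPM, the unit of levels below, in which each TMM-scaled library holds 1e+06 counts. The kit keeps the strand, yet many counts lie under genes whose strong neighbour is on the other strand. BEST1 held 486557 counts and FTH1, which overlaps it, 10068, while MT-ND6 held 233897 counts per kb and MT-ND5 85224. Genes with exons that overlap the opposite strand took 62.2% to 70.1% of a library. If reads were counted on the strand opposite to their transcripts, the counts under genes with no overlap are a residue of each gene's reads, and their levels are not plain expression levels; this was not tested. IGFBP2, IGFBP3, IGFBP4 and IGFBP6 have no such overlap in GENCODE release 29, nor has PEPD. IGFBP5 shares 298 exon bases with AC007563.2, which is not analysed here, and IGFBP7 shares 270 with POLR2B and 94 with IGFBP7-AS1, which had 0 counts in all 12 libraries.

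Of the glioma and astroglial markers (10 genes, 7 tested), S100B, FABP7 and OLIG2 were at 0 in every T98G library and OLIG2 in every U251 library. Their summed level was 1150 to 1320 CPM in T98G PEPD-OE and 1580 to 1640 CPM in T98G NC, and 3170 to 3730 CPM in U251 PEPD-OE and 4570 to 4670 CPM in U251 NC. Of the 7 tested, VIM and SOX9 were called lower in T98G, where 14.7% of all genes were called lower. VIM, GFAP and SOX2 were called lower in U251, where 4.38% of all genes were. CD44, NES and FABP7 were called in neither line, nor were GFAP and SOX2 in T98G or SOX9 in U251. The summed level of the fibroblast markers (8 genes, 3 tested) was 607 to 739 CPM in T98G PEPD-OE against 297 to 372 CPM in T98G NC, and 327 to 420 CPM in U251 PEPD-OE against 534 to 584 CPM in U251 NC. In T98G 2 of the 3 tested were called higher (COL1A2 and PDGFRB; 17.6% of all genes) and in U251 1 was called lower (COL1A2; 4.38% of all genes), while THY1 was called in neither line. COL1A2, a collagen chain, had log2 fold changes of 1.25 ± 0.12 (SE) in T98G and −0.54 ± 0.11 in U251, while DCN was at 0 in every T98G library. Summed markers of other types were lower in all libraries. They were at 0 to 60.4 CPM for macrophages and microglia, 6.08 to 30.6 for endothelium, 10.9 to 39.4 for neurons and 84.4 to 215 for epithelium. Of the 3 epithelial markers tested, CLDN4 was called higher (2.13 ± 0.23, log2, SE) and KRT8 lower (−0.80 ± 0.22) in T98G PEPD-OE. There 17.6% of all genes were called higher and 14.7% lower, and no epithelial marker was called in U251. The 1 neuron marker tested, SYT1, was called higher in U251 PEPD-OE (1.22 ± 0.36), where 4.13% of all genes were, and was not called in T98G. The part of these markers in the IGFBP results was not tested, and in bulk samples fewer cells of a type and less RNA per cell cannot be told apart.

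The 6 genes lie on 5 chromosomes of GRCh38, and all are protein-coding. IGFBP2 (ENSG00000115457, plus strand, chr2:216632828-216664436) and IGFBP5 (ENSG00000115461, minus strand, chr2:216672105-216695525) are neighbours, tail to tail, with 7668 bases between them. IGFBP3 (ENSG00000146674) is on the minus strand at chr7:45912245-45921874 and IGFBP4 (ENSG00000141753) on the plus strand at chr17:40443461-40457731. IGFBP6 (ENSG00000167779) is on the plus strand at chr12:53097436-53102345 and IGFBP7 (ENSG00000163453) on the minus strand at chr4:57030773-57110385.

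The promoters of IGFBP5 and IGFBP4, which rose together in T98G, and of IGFBP3, which moved the other way, are shown as the 250 bases before the RefSeq start site (GRCh38.p14, gene strand, 5′ to 3′). RefSeq promoters were matched for 5 of the 6 members. RefSeq starts can differ from the GENCODE positions given above. The IGFBP3 window lies inside the gene as GENCODE places it, with its 5′ end at 45921874. The IGFBP6 window and the later IGFBP2 windows also reach into the genes as placed there. Capitals mark the matches to the motifs searched on both strands. These were the TATA box TATAAA, the GC box GGGCGG (read as CCGCCC on the other strand), the AP-1 site TGACTCA, the antioxidant response core TGACNNNGC, the TEAD site CATTCC and the E-box CACGTG. The AP-1 site and the antioxidant response core can overlap.
IGFBP5, chr2:216695550-216695799, minus strand: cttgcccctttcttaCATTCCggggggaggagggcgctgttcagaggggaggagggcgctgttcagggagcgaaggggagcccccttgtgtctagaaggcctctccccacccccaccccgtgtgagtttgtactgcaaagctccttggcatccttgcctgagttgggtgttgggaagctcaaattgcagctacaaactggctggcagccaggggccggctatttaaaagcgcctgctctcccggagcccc
IGFBP4, chr17:40443200-40443449, plus strand: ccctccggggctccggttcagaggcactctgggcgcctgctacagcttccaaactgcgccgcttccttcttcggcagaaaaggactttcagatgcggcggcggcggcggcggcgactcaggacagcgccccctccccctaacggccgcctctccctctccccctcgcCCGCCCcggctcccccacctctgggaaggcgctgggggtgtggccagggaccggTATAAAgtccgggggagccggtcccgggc
IGFBP3, chr7:45921273-45921522, minus strand: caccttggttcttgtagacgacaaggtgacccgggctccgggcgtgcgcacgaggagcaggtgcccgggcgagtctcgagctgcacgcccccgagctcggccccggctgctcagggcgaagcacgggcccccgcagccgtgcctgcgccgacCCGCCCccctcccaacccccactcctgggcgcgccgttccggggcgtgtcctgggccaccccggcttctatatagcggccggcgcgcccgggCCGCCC
No motif searched was found in all 3 windows. The IGFBP5 window, with 61.2% G or C, held a single TEAD motif 235 bases before the start, a motif found in 11.9% of 35116 RefSeq windows of the same length. The IGFBP4 window (71.6% G or C) held a TATA box 29 bases before the start, which 10.7% of windows hold, and a GC box 83 bases before it, which 42.6% hold. The IGFBP3 window was the richest in G and C at 76.0%, against a median of 58.0% over all windows, and held GC boxes 98 and 6 bases before the start. The IGFBP6 window held a TEAD motif 101 and a GC box 17 bases before the start, and the first and second of the 3 IGFBP2 windows in RefSeq held a GC box, 86 and 49 bases before their starts. None of the member windows, including those of IGFBP2 and IGFBP6, held the AP-1 site, which 4.2% of all windows hold, the antioxidant response core (10.9%) or the E-box (6.34%). A match is a description of these letters and not a binding site.

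IGFBP3 is the main carrier of IGFs in blood, a known target of TGF-beta signalling. It was lower in T98G PEPD-OE and higher in U251 PEPD-OE. T98G PEPD-OE libraries gave 49, 35 and 48 counts (70.2, 52.8 and 66.2 CPM), against 76, 109 and 114 counts (155, 137 and 139 CPM) in T98G NC. Replicates 1 to 3 of U251 PEPD-OE had 12, 16 and 17 counts (17.5, 18.5 and 17.6 CPM), against 2, 5 and 0 counts (2.33, 6.24 and 0 CPM) in U251 NC. The groups did not overlap in either line, and in U251 NC the gene was at or near the limit of detection. In T98G the log2 fold change was −1.17 ± 0.18 (SE, adjusted p = 1.20e-08) and in U251 2.59 ± 0.49 (adjusted p = 2.64e-05), which is 6.01-fold. The U251 fold rests on 7 counts in the NC group, and without U251 NC replicate 2 it was 3.72 on the log2 scale, still called.

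IGFBP5, the most conserved member of the family and one that binds to extracellular matrix, was the most abundant member in T98G and rose further there. T98G PEPD-OE replicates had 2998, 2729 and 3170 counts (4290, 4120 and 4370 CPM), against 648, 1017 and 1217 (1320, 1280 and 1480 CPM) in T98G NC. All 3 PEPD-OE libraries stood far above all 3 NC libraries. The log2 fold change of 1.65 ± 0.08 (SE, adjusted p = 2.75e-41) is 3.13-fold, and the gene ranked 16 by p among all genes tested. In U251 PEPD-OE there were 81, 113 and 136 counts (118, 131 and 141 CPM), against 101, 84 and 79 counts (118, 105 and 98 CPM) in U251 NC. The U251 groups touched without crossing, and the change of 0.29 ± 0.12 did not pass the test (adjusted p = 0.114; unadjusted p = 0.0146). IGFBP5 counts may include reads of AC007563.2 where their exons overlap.

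IGFBP4, a binding protein that mostly restrains IGF action and is cut by the protease PAPPA, also rose in T98G. T98G PEPD-OE libraries gave 178, 155 and 188 counts (255, 234 and 259 CPM), against 58, 101 and 103 (119, 127 and 125 CPM) in T98G NC. Every PEPD-OE library lay above every NC library, and the log2 fold change was 1.01 ± 0.14 (SE, adjusted p = 5.99e-10). In U251 the gene was low: 5, 16 and 14 counts (7.30, 18.5 and 14.5 CPM) in PEPD-OE, against 15, 15 and 16 counts (17.5, 18.7 and 19.9 CPM) in NC. These U251 groups overlapped, with a change of −0.42 ± 0.32 (adjusted p = 0.502).

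IGFBP2, the member tied to malignant glioma, was lower in T98G than in U251 and rose in T98G. Replicates 1 to 3 of T98G PEPD-OE had 51, 45 and 57 counts (73.1, 67.9 and 78.6 CPM), against 14, 37 and 41 (28.6, 46.6 and 49.8 CPM) in T98G NC. The T98G groups did not overlap, and the log2 fold change was 0.76 ± 0.21 (SE, adjusted p = 0.00199). U251 PEPD-OE replicates had 101, 188 and 199 counts (147, 217 and 206 CPM), against 216, 186 and 161 (252, 232 and 200 CPM) in U251 NC. The U251 groups overlapped, with U251 PEPD-OE replicate 1 lowest, and the change of −0.25 ± 0.13 did not pass the test (adjusted p = 0.274).

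IGFBP6, which prefers IGF2 over IGF1, was the member with the fewest counts, 230 over the 12 libraries. In T98G PEPD-OE there were 38, 25 and 39 counts (54.4, 37.7 and 53.8 CPM), against 12, 26 and 19 (24.5, 32.7 and 23.1 CPM) in T98G NC. On TMM-scaled CPM the groups did not overlap, but on raw totals T98G PEPD-OE replicate 2 (34.6 CPM) lay below T98G NC replicate 2 (35.1 CPM). The log2 fold change of 0.85 ± 0.27 (SE) passed the test (adjusted p = 0.00758). That call was lost with DESeq2 and when T98G NC replicate 3 was left out, with an adjusted p of up to 0.0659. U251 PEPD-OE libraries gave 5, 11 and 15 counts (7.30, 12.7 and 15.6 CPM), against 21, 7 and 12 (24.5, 8.73 and 14.9 CPM) in U251 NC. The U251 groups overlapped, with a change of −0.39 ± 0.37 (adjusted p = 0.606), and the sign turned to 0.05 without U251 NC replicate 1.

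IGFBP7, the low-affinity relative found in matrix and vessel walls, did not pass the test in either line. Replicates 1 to 3 of T98G PEPD-OE had 41, 34 and 52 counts (58.7, 51.3 and 71.7 CPM), against 40, 44 and 64 (81.7, 55.4 and 77.8 CPM) in T98G NC. U251 PEPD-OE replicates had 266, 447 and 459 counts (388, 517 and 476 CPM), against 432, 385 and 389 (504, 480 and 483 CPM) in U251 NC. The groups overlapped in both lines. Changes were −0.21 ± 0.18 in T98G (SE, adjusted p = 0.399) and −0.08 ± 0.11 in U251 (adjusted p = 0.75). POLR2B, an RNA polymerase II subunit that overlaps IGFBP7 on the other strand, averaged 48.7 ± 8.20 CPM in T98G PEPD-OE and 54.4 ± 7.49 CPM in T98G NC, and 134 ± 12.4 CPM in U251 PEPD-OE and 137 ± 13.4 CPM in U251 NC (SD, n = 3 each). It was thus higher in U251, as IGFBP7 was, and whether reads of one were counted for the other was not tested.

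**Figure D1:**
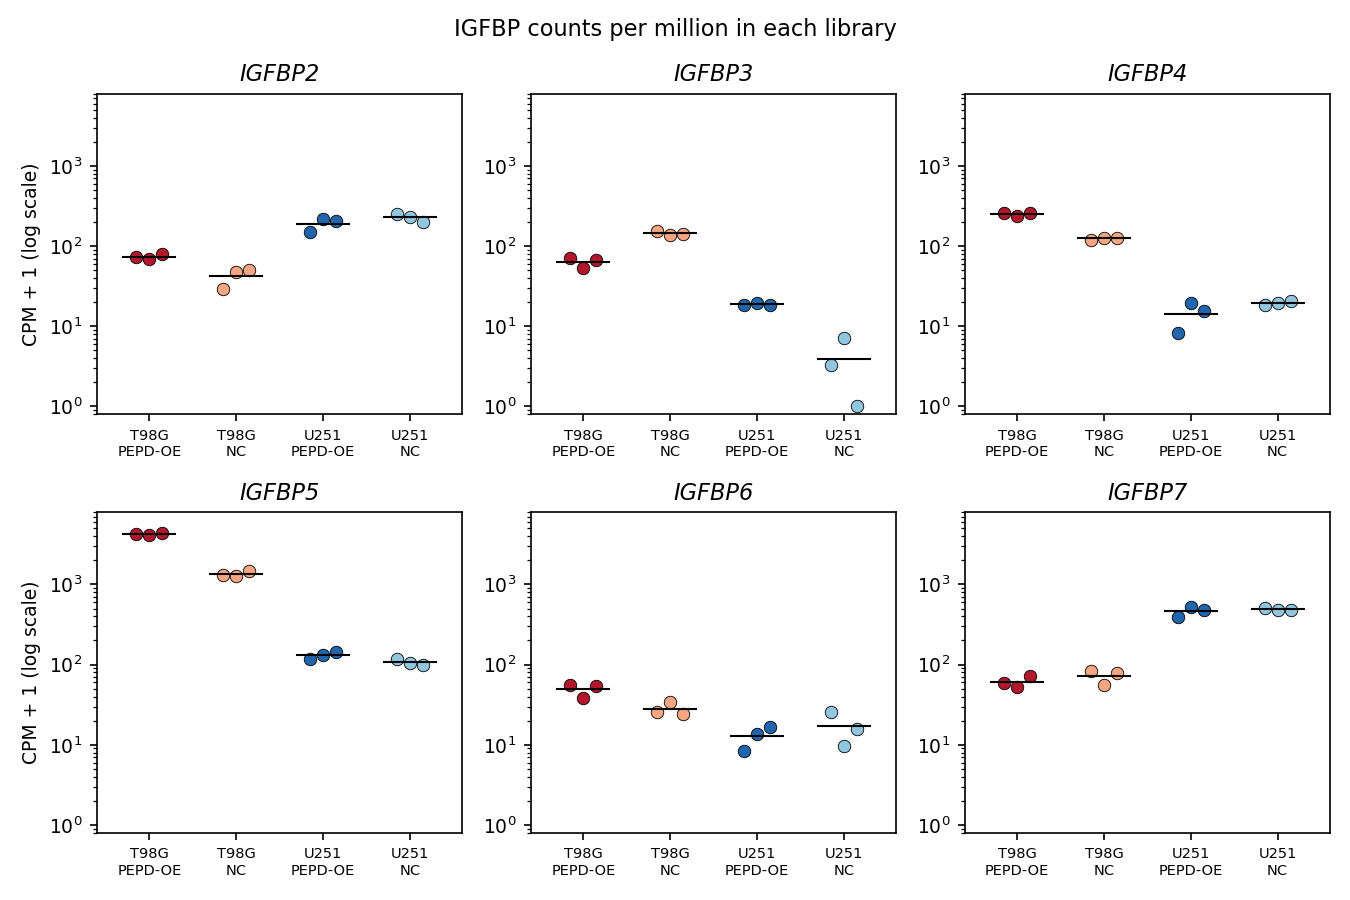
CPM + 1 on a log axis for each IGFBP gene, with 1 point per library and a black line at the group mean of 3 libraries. IGFBP5 in T98G PEPD-OE stands at 4120 to 4370 CPM against 1280 to 1480 CPM in T98G NC, and IGFBP3 reaches 0 in 1 U251 NC library.

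Counted together, 4 members were higher in T98G PEPD-OE (IGFBP2, IGFBP4, IGFBP5 and IGFBP6), 1 was lower (IGFBP3) and 1 was not called (IGFBP7). Of all genes tested, 17.6% were called higher and 14.7% lower in T98G. The members' median log2 fold change was 0.80 and that of all genes 0.00, and the median absolute change was 0.93 for the members and 0.46 for all genes. DESeq2 called 3 members higher and 1 lower. The PEPD-OE and NC libraries of T98G did not overlap in TMM-scaled CPM for 5 of 6 members, as for 43.5% of all genes. Of these members, IGFBP6 overlapped on raw totals.

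In U251 PEPD-OE, 1 member was higher, IGFBP3, where 4.13% of all genes were called higher. No member was lower by edgeR (0 of 6, also 0 at an unadjusted p under 0.05 and 0 by DESeq2), where 4.38% of all genes were called lower. The median over the members was −0.16, against 0.00 over all genes, and the median absolute change was 0.34, against 0.26. Libraries of the groups did not overlap for 2 of 6 members, IGFBP3 and, only barely, IGFBP5, as for 22.4% of all genes.

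**Figure D2:**
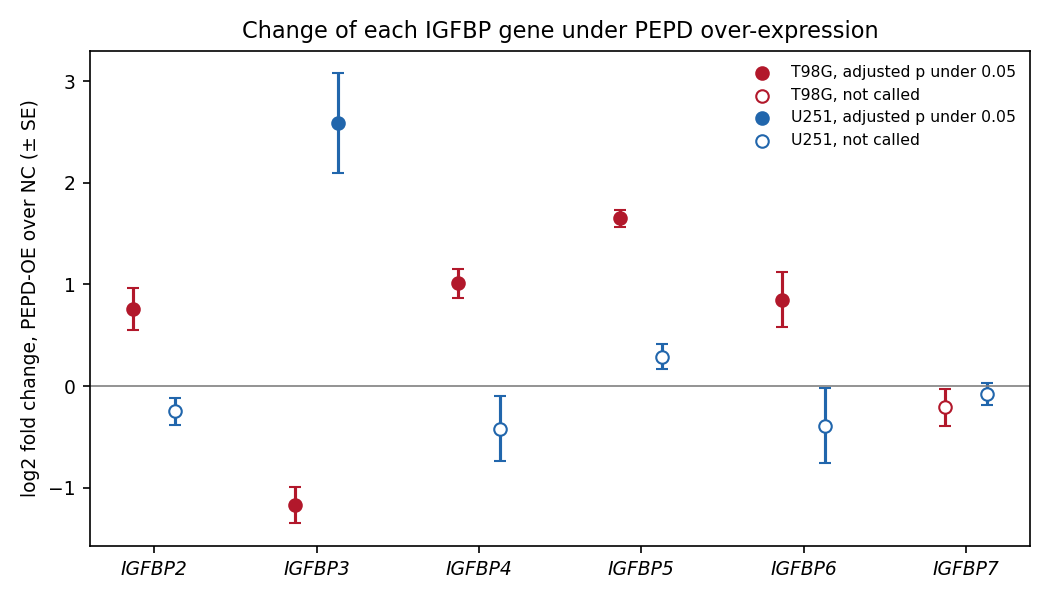
Log2 fold change of PEPD-OE over NC for each IGFBP gene, with SE bars, in T98G (red) and U251 (blue); filled points passed an adjusted p of 0.05. IGFBP3 stands at −1.17 in T98G and 2.59 in U251, and the filled T98G points of IGFBP2, IGFBP4, IGFBP5 and IGFBP6 lie at 0.76 to 1.65.

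Whether the change differed between the lines was tested directly, as the T98G change minus the U251 change on the log2 scale. It passed for 5 of 6 members, where 27.7% of all genes were called in either direction. IGFBP3 had the largest difference among the members, −3.76 ± 0.51 (SE, adjusted p = 2.39e-10). IGFBP5 (1.36 ± 0.14, adjusted p = 3.16e-15), IGFBP4 (1.43 ± 0.35, adjusted p = 7.30e-04) and IGFBP2 (1.00 ± 0.24, adjusted p = 5.74e-04) changed more in T98G. For IGFBP6 the difference was 1.24 ± 0.45 (adjusted p = 0.0284), lost in 8 of 19 alternative settings. IGFBP7 gave −0.13 ± 0.21 (adjusted p = 0.698). The median difference was 1.12 over the members and −0.02 over all genes.

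Without PEPD over-expression the lines already differed in this family, in a comparison that shares its NC libraries with those above. T98G NC had more IGFBP3 than U251 NC (144 ± 10.1 against 2.86 ± 3.15 CPM, SD, n = 3 each), more IGFBP4 (124 ± 4.51 against 18.7 ± 1.18 CPM) and more IGFBP5 (1360 ± 104 CPM against 98 to 118 CPM). It had less IGFBP2 (41.7 ± 11.4 against 228 ± 26.3 CPM) and less IGFBP7 (71.6 ± 14.2 against 489 ± 12.9 CPM). These log2 differences were 5.57 ± 0.31 (SE) for IGFBP3, 2.72 ± 0.21 for IGFBP4, 3.67 ± 0.10 for IGFBP5, −2.39 ± 0.17 for IGFBP2 and −2.79 ± 0.14 for IGFBP7 (largest adjusted p of the 5 = 1.54e-24). The IGFBP3 value rests on only 7 counts over the U251 NC libraries, and its SE of 0.31 may understate the uncertainty. The IGFBP3 change in U251, which uses the same 7 counts, had an SE of 0.49. With 1 library left out, the IGFBP3 difference between the NC groups ranged from 5.02 to 6.70. IGFBP6 averaged 26.8 ± 5.20 CPM in T98G NC and 16.0 ± 7.94 CPM in U251 NC. Its libraries overlapped, and the difference of 0.73 ± 0.32 (adjusted p = 0.0493) was lost in 13 of 19 alternative settings. In all, 4 members were higher and 2 lower in T98G NC, where 24.4% and 24.3% of all genes were called higher and lower. For 5 of 6 members the libraries of the lines did not overlap, as for 55.1% of all genes.

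The order of the groups differed by gene. IGFBP5 and IGFBP3 separated every neighbouring pair of groups, though the U251 groups of IGFBP5 only barely, with a library at 118 CPM in each. IGFBP5 averaged 4260 ± 129 CPM in T98G PEPD-OE, 1360 ± 104 in T98G NC, 130 ± 11.4 in U251 PEPD-OE (SD, n = 3 each) and 107 in U251 NC, where it ranged from 98 to 118. IGFBP3 averaged 63.1 ± 9.09 CPM in T98G PEPD-OE, 144 ± 10.1 in T98G NC, 17.9 ± 0.54 in U251 PEPD-OE and 2.86 ± 3.15 in U251 NC. IGFBP4 had its highest level in T98G PEPD-OE (249 ± 13.5 CPM), then in T98G NC (124 ± 4.51), with U251 PEPD-OE (13.4 ± 5.68) and U251 NC (18.7 ± 1.18) overlapping. For IGFBP2, U251 PEPD-OE (190 ± 37.6 CPM) and U251 NC (228 ± 26.3) overlapped at the top, above T98G PEPD-OE (73.2 ± 5.34), which was above T98G NC (41.7 ± 11.4). IGFBP7 likewise overlapped within each line, with U251 PEPD-OE (460 ± 65.7 CPM) and U251 NC (489 ± 12.9) above T98G PEPD-OE (60.6 ± 10.3) and T98G NC (71.6 ± 14.2). For IGFBP6, T98G PEPD-OE (48.6 ± 9.46 CPM) was above T98G NC (26.8 ± 5.20), and T98G NC, U251 NC (16.0 ± 7.94) and U251 PEPD-OE (11.9 ± 4.20) overlapped neighbour by neighbour.

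Per kb of exon, the scale on which different genes can be set side by side, the counts were led by a different member in each line. The leaders, IGFBP5 and IGFBP7, are the members that share exon bases with the opposite strand, so this order and the shares describe the deposited counts and may not be the order of the transcripts. IGFBP5 led in T98G with 661 CPM per kb in PEPD-OE and 211 in NC, and IGFBP7 in U251 with 239 in PEPD-OE and 253 in NC. Summed over the 6 genes, the level was 872 ± 40.6 CPM per kb in T98G PEPD-OE and 365 ± 18.2 in T98G NC, with no overlap (SD, n = 3 each). The U251 sums were 317 ± 48.4 in PEPD-OE and 339 ± 17.4 in NC and overlapped. IGFBP5 made up 75.9% ± 1.27 of the sum in T98G PEPD-OE and 57.9% ± 1.55 in T98G NC. The shares of IGFBP3 were 1.58% ± 0.17 in T98G PEPD-OE against 8.64% ± 0.781 in T98G NC, and those of IGFBP7 3.59% ± 0.463 against 10.2% ± 1.80. In U251 IGFBP7 held 75.2% ± 1.30 in PEPD-OE and 74.8% ± 1.89 in NC, and IGFBP2 12.5% ± 0.661 and 14.1% ± 1.11. The U251 shares of IGFBP3 were 1.14% to 1.46% in PEPD-OE and 0 to 0.413% in NC, and those of IGFBP5 5.7% to 6.98% in PEPD-OE and 4.65% to 5.1% in NC, without overlap. The shares of 1 group sum to a whole, so a larger share of one gene lowers the others, and they carry no test.

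**Figure D3:**
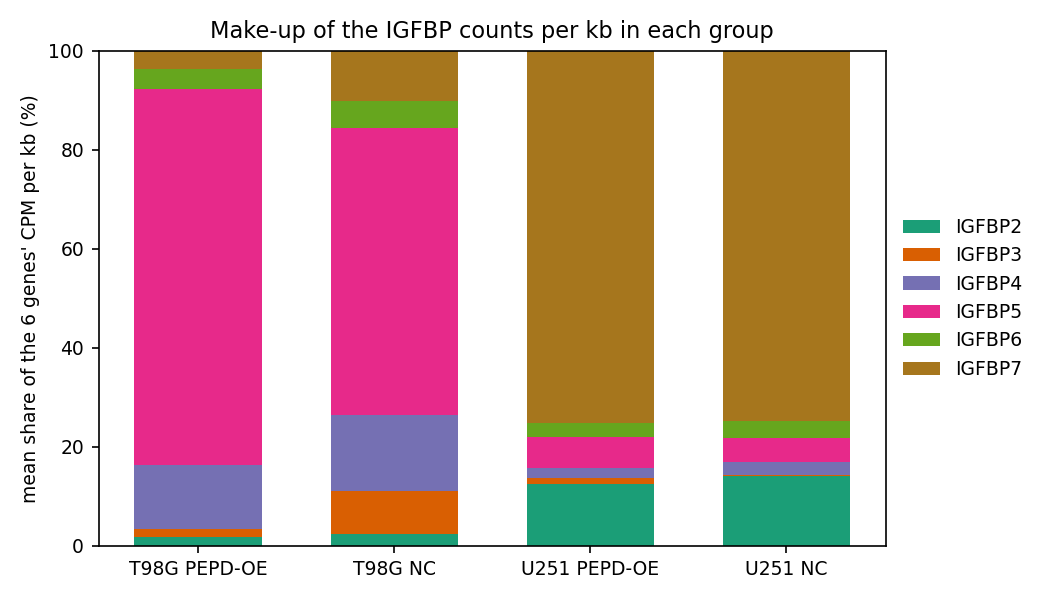
Mean share of each gene in the CPM per kb of the 6 IGFBP genes, as stacked bars for the 4 groups (mean of 3 libraries). IGFBP5 takes 75.9% in T98G PEPD-OE and 57.9% in T98G NC, and IGFBP7 takes 75.2% in U251 PEPD-OE and 74.8% in U251 NC.

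The ligands of the pathway had few or no counts. If reads were counted on the opposite strand, which was not tested, these counts may not follow the ligand transcripts. IGF2 (opposite IGF2-AS) held 17 counts over the T98G PEPD-OE libraries, 10 over T98G NC and 0 in U251, and IGF1 (opposite HELLPAR) held 6 counts over U251 PEPD-OE, 10 over U251 NC and 0 in T98G. INS and IGFBP1, the family's remaining classical member, were at 0 in all 12 libraries. Of 7 ligands and receptors only IGF1R and IGF2R were tested, and none was called by edgeR in either line (0 by DESeq2; at an unadjusted p under 0.05, 1 higher and 1 lower in T98G and 0 in U251). IGF1R, the signalling receptor, changed by 0.81 ± 0.35 in T98G (log2, SE, adjusted p = 0.0671) and −0.15 ± 0.25 in U251 (adjusted p = 0.817), with 17, 12 and 20 counts in T98G PEPD-OE against 6, 14 and 8 in T98G NC. Each of these receptors passed in T98G under 2 of 20 alternative settings, IGF1R without T98G PEPD-OE replicate 2 or T98G NC replicate 2 and IGF2R with upper-quartile scaling or each line fitted alone. The 2 medians of the list were 0.21 in T98G and −0.15 in U251, against 0.00 over all genes in each line.

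Among other carriers and proteases of IGFBPs, 12 of 22 were tested. In T98G 2 rose and 2 fell, where 32.3% of all genes tested were called in either direction, and in U251 1 rose and 1 fell, where 8.5% were. The list's medians were 0.33 and −0.03, against 0.00 over all genes. STC2, a stanniocalcin that blocks the PAPPA protease that cuts IGFBP4, moved in opposite directions. It averaged 58.5 ± 15.5 CPM in T98G PEPD-OE and 325 ± 12.5 in T98G NC (log2 fold change −2.46 ± 0.16, adjusted p = 5.89e-32), and 40.6 ± 4.24 in U251 PEPD-OE and 13.7 ± 3.33 in U251 NC (1.53 ± 0.28, adjusted p = 1.04e-05). Its relative STC1 rose in T98G, to 160 ± 9.36 CPM in PEPD-OE against 80.4 ± 28.9 in NC (0.92 ± 0.16, adjusted p = 7.72e-07). MMP2, a gelatinase, rose in T98G by 0.81 ± 0.11 and the collagenase MMP1 (opposite WTAPP1) fell by 0.91 ± 0.26 on the log2 scale, a call lost with DESeq2. In U251 the lysosomal protease CTSD (opposite AC068580.3) fell by 0.47 ± 0.14, a call lost without U251 PEPD-OE replicate 2, U251 NC replicate 1 or U251 NC replicate 3.

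Of 13 further genes whose proteins carry an IGFBP-type N-terminal domain, 5 were tested. In T98G 1 rose and 1 fell (32.3% of all genes called in either direction), and in U251 3 rose and 1 fell (8.5% of all genes), with medians of −0.35 and 0.86. CCN2 (opposite AL133346.1), a matrix protein, averaged 477 ± 47.0 CPM in U251 PEPD-OE and 96.6 ± 10.5 in U251 NC (log2 fold change 2.30 ± 0.13, adjusted p = 9.93e-35). CCN1, its relative, averaged 165 ± 9.49 CPM in U251 PEPD-OE and 63.9 ± 13.5 in U251 NC (1.38 ± 0.16, adjusted p = 4.57e-12). CRIM1 (opposite AC007378.1), a membrane protein that binds BMPs, fell by 1.17 ± 0.27 in T98G and rose by 0.86 ± 0.21 in U251, where the call was lost without U251 NC replicate 1. KAZALD1 went the other way at low counts, with 1.56 ± 0.57 in T98G (adjusted p = 0.0261) and −1.44 ± 0.41 in U251 (adjusted p = 0.0116), calls lost in 5 of 19 and 4 of 20 alternative settings.

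Downstream of IGF1R, 21 of 27 signalling genes were tested. In T98G 2 rose and 2 fell (median 0.14), a smaller share than the 32.3% of all genes called. In U251 none was called by edgeR (0 at an unadjusted p under 0.05 and 0 by DESeq2, median 0.06). Those that rose were SHC1 (opposite AL451085.2), an adaptor, at 1.04 ± 0.17 and RICTOR (opposite OSMR), a subunit of mTORC2, at 1.33 ± 0.25. The receptor substrate IRS1 fell by 0.94 ± 0.31, a call lost with DESeq2 and without T98G PEPD-OE replicate 1, and EIF4EBP1, a repressor of translation, by 1.03 ± 0.24. The IGF2 mRNA-binding proteins, which bind RNA and are no IGF carriers, had 2 of 3 genes tested, and both fell in T98G, where 14.7% of all genes were called lower. IGF2BP2 fell by 0.77 ± 0.26, a call lost with DESeq2 and without T98G PEPD-OE replicate 2 or T98G NC replicate 3, and IGF2BP3 (opposite MALSU1) by 0.93 ± 0.25. In U251 neither was called by edgeR (0 at an unadjusted p under 0.05 and 0 by DESeq2).

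The list of known inducers and partners of IGFBP3 and IGFBP5 had 12 of 16 genes tested. In T98G 5 rose and 3 fell (32.3% of all genes called in either direction), and in U251 1 rose and 1 fell (8.5% of all genes), with medians of 0.60 and 0.05. THBS1 (opposite FSIP1 and AC037198.2), thrombospondin 1, averaged 263 ± 36.5 CPM in T98G PEPD-OE and 1220 ± 12.4 in T98G NC (log2 fold change −2.22 ± 0.11, adjusted p = 2.20e-43). In U251 it averaged 654 ± 75.2 CPM in PEPD-OE and 296 ± 49.8 in NC (1.15 ± 0.11, adjusted p = 1.01e-17). It thus fell in T98G and rose in U251, as IGFBP3 did.

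LRP1 (opposite LRP1-AS and STAT6), an endocytic receptor that binds IGFBP3, rose by 1.56 ± 0.17 (log2, SE) in T98G and fell by 1.37 ± 0.38 in U251, where its libraries overlapped and the call was lost without U251 PEPD-OE replicate 2 or U251 NC replicate 1. The growth factor TGFB2 rose in T98G, to 94.6 ± 14.1 CPM in PEPD-OE against 22.5 ± 6.85 in NC (2.05 ± 0.24, adjusted p = 2.17e-13), and TGFB1 (opposite HNRNPUL1) by 0.74 ± 0.19. Their receptor TGFBR2 fell in T98G by 1.33 ± 0.37 and the caveolar protein CAV1 by 1.92 ± 0.21. The integrin subunit ITGAV (opposite AC017101.1) rose by 0.93 ± 0.22 and the LIM protein FHL2 (opposite AC108058.1) by 0.96 ± 0.30 in T98G. The FHL2 libraries overlapped, and its call was lost with DESeq2 and without T98G PEPD-OE replicate 2 or T98G NC replicate 3. Over all lists, 5 of the 53 listed genes tested were called in both lines (STC2, KAZALD1, CRIM1, LRP1 and THBS1), each with opposite signs. Of all genes tested, 4.97% were called in both lines and 3.94% in both with opposite signs.

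**Figure D4:**
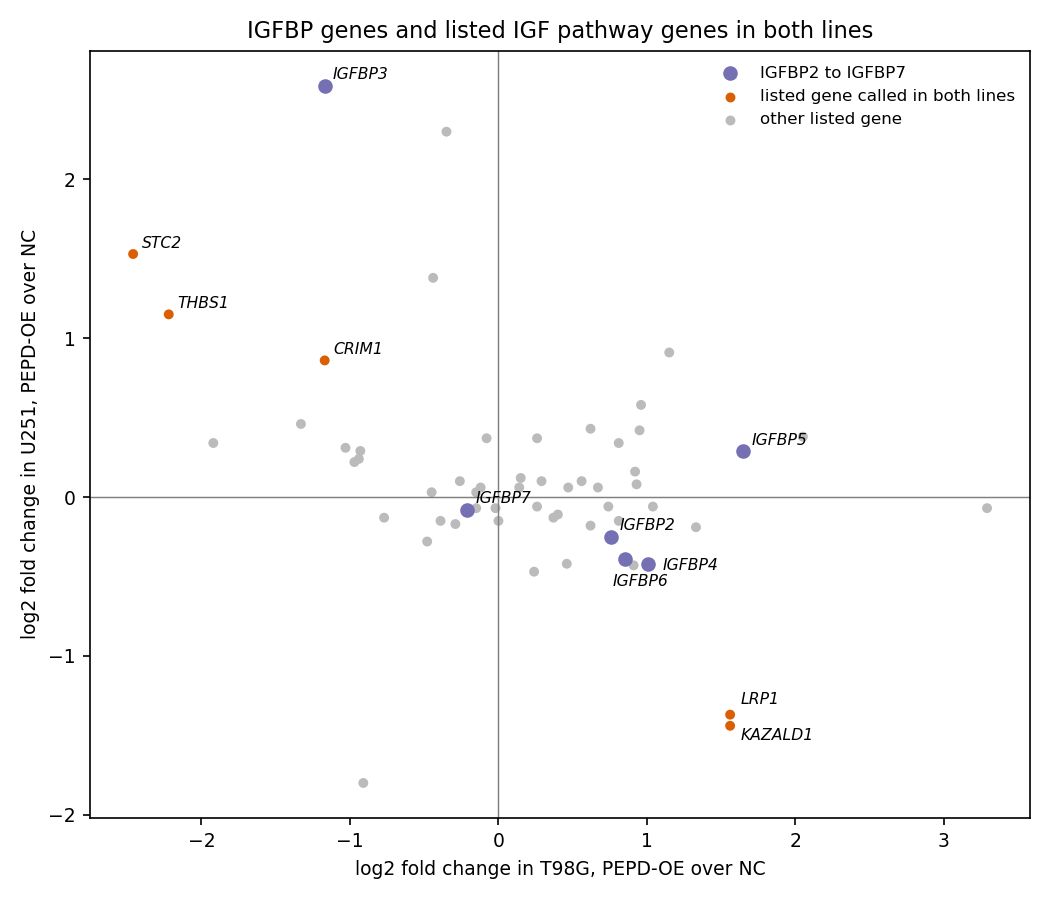
Log2 fold change of PEPD-OE over NC in T98G (x axis) and U251 (y axis) for the IGFBP genes (purple) and the 53 other listed genes tested (orange where called in both lines, grey otherwise). IGFBP3 lies in the upper left with STC2, THBS1 and CRIM1, and IGFBP2, IGFBP4 and IGFBP6 lie right of zero.

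For each member the tested genes most like it were found by Pearson's r of log2(CPM + 1) over the 12 libraries, among 5499 genes with a mean of at least 20 CPM. These libraries fall into 2 lines, so r mostly follows the difference between T98G and U251, and it is given as a description. IGFBP5 was closest to CLSTN2 (0.997), AHNAK (0.992) and LOXL2 (0.992, opposite AC090197.1). CLSTN2 averaged 101 ± 6.23 CPM in T98G PEPD-OE and 30.0 ± 2.04 in T98G NC and was at 0 in U251. IGFBP4 was closest to the gene ENSG00000291203 (0.993), RTRAF (0.993, opposite NID2) and COL6A2 (0.991). Nearest to IGFBP3 were JOSD1 (0.968), COL4A2 (0.965, opposite COL4A2-AS1 and COL4A2-AS2) and SF3A1 (0.962, opposite CCDC157). JOSD1 averaged 74.6 ± 12.1 CPM in T98G PEPD-OE and 81.7 ± 8.91 in T98G NC, and 34.0 ± 6.38 in U251 PEPD-OE and 20.3 ± 10.1 in U251 NC, a narrower range than that of IGFBP3. For IGFBP2 the nearest were ALCAM (0.983), TSC22D4 (0.981) and RGP1 (0.981, opposite MSMP and AL133410.2). IGFBP7 lay closest to LAMA5 (0.993, opposite ADRM1 and LAMA5-AS1), ITGA3 (0.992) and EPB41L4A-AS1 (0.992, opposite EPB41L4A), and IGFBP6, with its low counts, to NDUFV1 (0.934, opposite C11orf72) and FKBP10 (0.934). Between members r was highest for IGFBP4 with IGFBP5 (0.98) and lowest for IGFBP5 with IGFBP7 (−0.97).

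**Figure D5:**
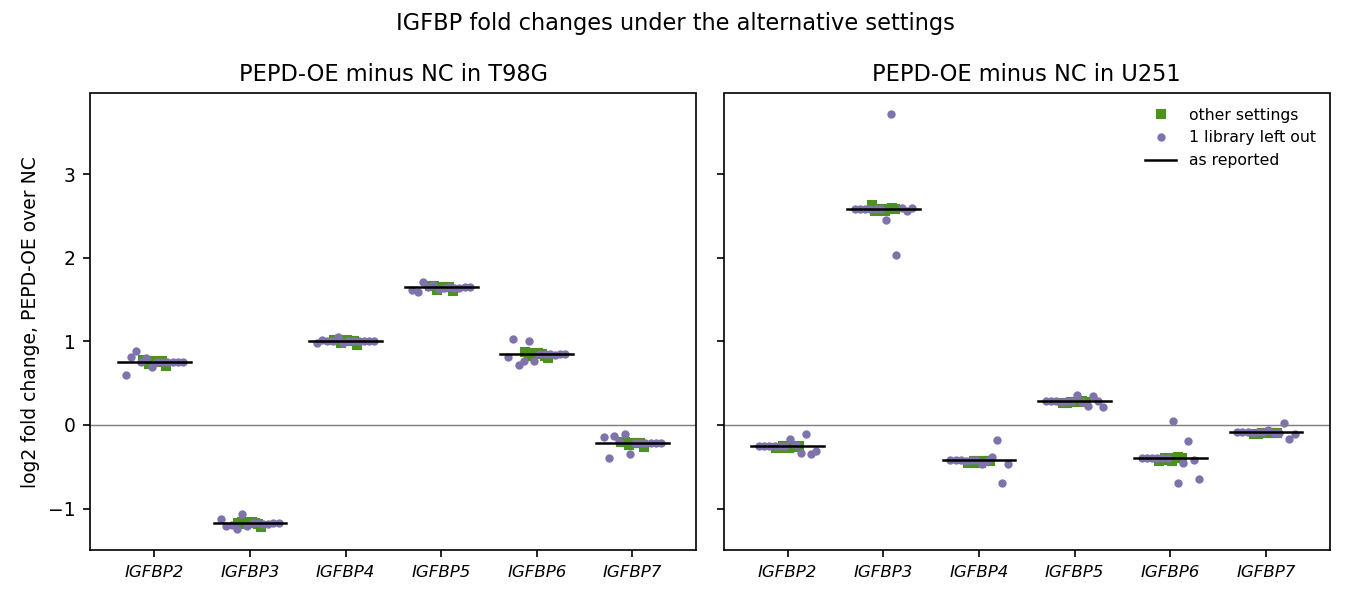
Log2 fold change of PEPD-OE over NC for each IGFBP gene under each alternative setting (green squares) and with each library left out (purple points), with the reported value as a black line, in T98G (left) and U251 (right). The IGFBP5 values in T98G stay between 1.59 and 1.71, while those of IGFBP3 in U251 span 2.04 to 3.72.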

How the data were processed

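Polyadenylated RNA of T98G and U251 cells was sequenced as dUTP-stranded paired-end libraries, per the labels' protocols. Tools named in the submitters' processing notes are HISAT2, featureCounts, Subread, fastp and FastQC, with the build GRCh38 and no versions. Which annotation and strand setting the counting used is not given in the sources used here. As deposited, the values are raw whole-number counts for 63241 Ensembl genes (20573 without a symbol). Library totals were 464056 to 924204 (median 772231), which limits low genes; PCR reads without molecular identifiers are not independent molecules. GENCODE release 29, with 58228 of the identifiers (92.1%), gave positions and exons, and RefSeq GRCh38.p14 the promoters.

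Counts were filtered with filterByExpr (minimum count 10), scaled by TMM and fitted in edgeR 4.0.16 (R 4.3.3) with a robust quasi-likelihood model, 1 mean per group, over all 12 libraries (8 residual degrees of freedom). P-values are two-sided, with Benjamini-Hochberg adjustment over 8773 genes; values under 0.05 were calls. SE is the absolute log2 fold change divided by the square root of F, and can lie below the counting error at few counts. An exact test of 3 against 3 cannot go below 0.1, so none was run. Contrasts were PEPD-OE minus NC in each line, the difference of these changes and T98G NC minus U251 NC. The scripts were tested on simulated data.

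The named genes are the 6 members, PEPD, the called members of each list (at most 6 per list and line), the 3 genes most like each member and genes overlapping a member. IGF1, IGF2, INS, IGF1R, IGF2R, IGFBP1, COL1A2, DCN, the other marker genes, BEST1, FTH1, MT-ND5 and MT-ND6 fall outside this rule: their choice followed a look at their values. A few genes that the rule names are not reported here and are left out of the counts and medians of the lists. The members and lists were chosen with earlier results of these data known. The labels give no batch. Alternatives were upper-quartile and RLE scaling, DESeq2 1.42.0, other filters on low counts, the replicate number as a block, each line alone, genes without opposite-strand overlap, and each library left out.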

Additional observations from a re-analysis of the deposited data

Results flagged for a closer look

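For 24 of 29 genes, the 6 members and 23 listed genes called in at least 1 line, the change under PEPD over-expression differed between the lines by edgeR's test of the difference itself (T98G change minus U251 change, log2, adjusted over all genes tested). Over all genes 27.7% passed this test. The 23 listed genes had been picked for a call in a line, which favours a difference, so 27.7% is not a matching share for them. Among the members these were IGFBP3 at −3.76, IGFBP2 at 1.00, IGFBP4 at 1.43, IGFBP5 at 1.36 and IGFBP6 at 1.24, the last of which lost the call in 8 of 19 alternative settings (smallest value 0.80, adjusted p up to 0.283).

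The carriers and proteases differed by −3.99 ± 0.31 (SE) for STC2, 0.76 ± 0.25 for STC1, which lost the call without T98G NC replicate 1 (adjusted p = 0.0994), and 0.71 ± 0.19 for CTSD. The genes with an IGFBP-type domain differed by −1.82 ± 0.25 for CCN1, −2.65 ± 0.27 for CCN2, 3.0 ± 0.70 for KAZALD1 and −2.03 ± 0.34 for CRIM1. In the signalling list the differences were −1.17 ± 0.40 for IRS1, 1.09 ± 0.22 for SHC1, 1.52 ± 0.38 for RICTOR and −1.35 ± 0.34 for EIF4EBP1. IRS1 lost the call in 4 of 19 settings. IGF2BP3 differed by −1.22 ± 0.41 and lost the call in 4 of 18.

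Of the inducers and partners of IGFBP3 and IGFBP5, THBS1 differed by −3.36 ± 0.15, LRP1 by 2.93 ± 0.41, and CAV1 by −2.27 ± 0.28. TGFBR2 differed by −1.79 ± 0.51, TGFB1 by 0.80 ± 0.24, TGFB2 by 1.67 ± 0.58 (lost in 4 of 19 settings) and ITGAV by 0.85 ± 0.33 (adjusted p = 0.0441, lost in 12 of 18).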

How the results depend on the processing

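IGFBP2, IGFBP3, IGFBP4 and IGFBP5 kept their calls in T98G and IGFBP3 its call in U251 under every alternative tried in which they were fitted, with IGFBP3 in U251 ranging from 2.04 to 3.72. Among the members only IGFBP6 lost calls. The sign turned for IGFBP6 in U251 (0.05) and IGF1R in U251 (0.17) without U251 NC replicate 1, and for IGFBP7 in U251 (0.02) without U251 PEPD-OE replicate 1; over the libraries left out they ranged from −0.69 to 0.05, −0.30 to 0.17 and −0.17 to 0.02. None of these was called either way, and IGFBP6 and IGF1R rest on few counts.

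Among genes without opposite-strand overlap, fewer genes were tested and fewer called: 1138 in T98G (2834 as reported), 237 in U251 (746), 912 for the difference (2427) and 1844 for T98G NC minus U251 NC (4273), where 3 members were called instead of 6, IGFBP5 and IGFBP7 not being in that fit. DESeq2 called 347 genes in U251, and the cause was not tested. With 1 library left out, genes called ranged from 2350 to 3025 in T98G, 440 to 742 in U251, 2115 to 2389 for the difference and 3810 to 4511 between the lines; the U251 count fell to 450 without U251 NC replicate 1, 442 without U251 NC replicate 3 and 440 without U251 PEPD-OE replicate 2. Members called ranged from 4 to 5, 1 to 1, 4 to 5 and 5 to 6 in the same order. Without U251 NC replicate 2 the IGFBP3 difference was −4.89 and its T98G NC minus U251 NC value 6.70.

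No pairing by replicate number was seen. Deviations of same-numbered PEPD-OE and NC libraries correlated at −0.04 to 0.05, and those of differently numbered ones at −0.05 to 0.04. At this depth counting noise can hide a shared batch, so these values cannot decide whether the samples were paired. With the replicate number as a block, 2858 genes were called in T98G, 793 in U251, 2427 for the difference and 4292 between the lines, with 5, 1, 5 and 6 members. On raw totals, 19 of 24 group levels moved by less than 1 SD. The 5 that moved were IGFBP2, IGFBP4 and IGFBP5 in T98G PEPD-OE, IGFBP4 in T98G NC and IGFBP3 in U251 PEPD-OE. TMM factors were 0.9094 to 0.9337 in T98G PEPD-OE and 1.055 to 1.079 in T98G NC. Scaling thus raised T98G PEPD-OE levels and lowered T98G NC levels, and on raw totals the T98G groups of IGFBP6 overlapped. IGFBP5 on raw totals stood at 3910, 3780 and 4080 CPM in T98G PEPD-OE against 1400, 1370 and 1600 in T98G NC. The low depth limits what can be seen of IGFBP3 in U251 NC, IGFBP6 and the ligands, apart from the open question of the strand counted.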
